A study of Mus musculus with 14 samples.

Results

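The 9 genes described here encode the mouse Notch receptors (Notch1, Notch2, Notch3 and Notch4) and the ligands of the Delta and Jagged families (Dll1, Dll3, Dll4, Jag1 and Jag2). They were chosen by name, with no measured value in the rule, and all 9 were found among the 35976 gene symbols counted. RNA was measured by bulk RNA-seq in EGFP+ supporting cells (SCs) sorted from cochlear explants of Lfng-EGFP mice, a line in which a bacterial artificial chromosome with the regulatory sequence of Lfng drives EGFP. Explants were taken at P0 (P0-P1 in the culture protocol) or P6 and kept for 24 h with 2 µM compound E in DMSO (CompE) or with an equal volume of DMSO. Compound E inhibits γ-secretase, the protease that releases the intracellular domain of Notch. There were 4 libraries of each treatment at P0 and 3 of each at P6, all of the same genotype, and tissue from 4 organs was pooled for each sort. Each library had between 19415066 and 44430063 counts on genes.

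Notch signaling works between touching cells. A Delta or Jagged ligand on one cell binds a Notch receptor on its neighbor, the receptor is cut first by an ADAM protease and then by γ-secretase, and the freed intracellular domain enters the nucleus, where it binds RBPJ and Mastermind and turns on Hes and Hey genes. In the organ of Corti, nascent hair cells (HCs) are known to carry Dll1 and Jag2 and thereby keep their neighbors from the HC fate, whereas Jag1 marks the prosensory domain and later the SCs. Dll3 differs from the other ligands in that it does not activate receptors on neighboring cells.

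Because 3 of the ligands carried a shared short sequence before their start sites, that sequence is shown first. In the 250 bases upstream of the RefSeq start sites (build GRCm38.p6, 10 start sites for the 9 genes), the E-box CAGCTG, a palindrome of the kind bound by basic helix-loop-helix factors, was present in 3 of 10 windows, 1 each of Dll1, Dll3 and Jag1. It was present in 13.1% of the same windows of all 32536 RefSeq promoters. The E-box CAGATG and the RBPJ core GTGGGAA, both searched on either strand, were in 0 of the 10 windows, against 14.4% and 5.43% of all promoters. These matches describe the letters only. The Dll1 window with the match lay at chr17:15376933-15377182 on the minus strand, outside the GENCODE M21 gene, with its E-box, in capitals, starting 132 bases before the start site.

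Dll1: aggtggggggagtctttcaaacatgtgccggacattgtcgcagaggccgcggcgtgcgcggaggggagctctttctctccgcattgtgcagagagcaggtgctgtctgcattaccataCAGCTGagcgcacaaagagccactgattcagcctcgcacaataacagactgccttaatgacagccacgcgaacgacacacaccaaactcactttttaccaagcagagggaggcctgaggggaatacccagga

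The matches of Dll3 (chr7:28301786-28301804, minus strand, 7 bases before the start site) and Jag1 (chr2:137116585-137116614, minus strand, 82 bases before it) are shown with their flanks, the E-box again in capitals. In the longer GENCODE gene models both matches lay inside the gene. All 250 bases of the Dll3 window and 124 bases of the Jag1 window were inside.

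Dll3: tccggcatccagCAGCTGc
Jag1: ccgcgtttcatgCAGCTGatctgaaaggga

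Levels were expressed as RPM (reads per 1000000 counted on genes) within a gene and, only where genes were set against each other, as TPM (counts per exonic length, scaled to a fixed sum). Jag1 was the most abundant of the 9 genes per length in each group. Its mean level in P0 DMSO SCs was 1511 TPM ± 527 (SD, n = 4), and by RPM it ranked 19 among the 24023 genes with a count in that group. Notch1 (115 TPM) and Notch3 (104 TPM) followed, with overlapping libraries, then Jag2 (41.3 TPM), Dll3 (13.5 TPM), Dll1 (10.8 TPM), Dll4 (4.86 TPM) and Notch2 (4.34 TPM), each of which overlapped the next in this order. Notch4 stood last at 1.02 TPM, below Notch2 in every library of the group. With the exon union as the length, Notch1 made up 51.9% of summed receptor TPM ± 4.80 and Notch3 45.7% ± 4.98. This split depended on the length used. With the longest transcript as the length, Notch1 was at 132 TPM and Notch3 at 80.3 TPM in P0 DMSO SCs. The ligand pool of P0 DMSO SCs was 94.7% ± 4.05 Jag1 (SD, n = 4).

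**Figure D1:**
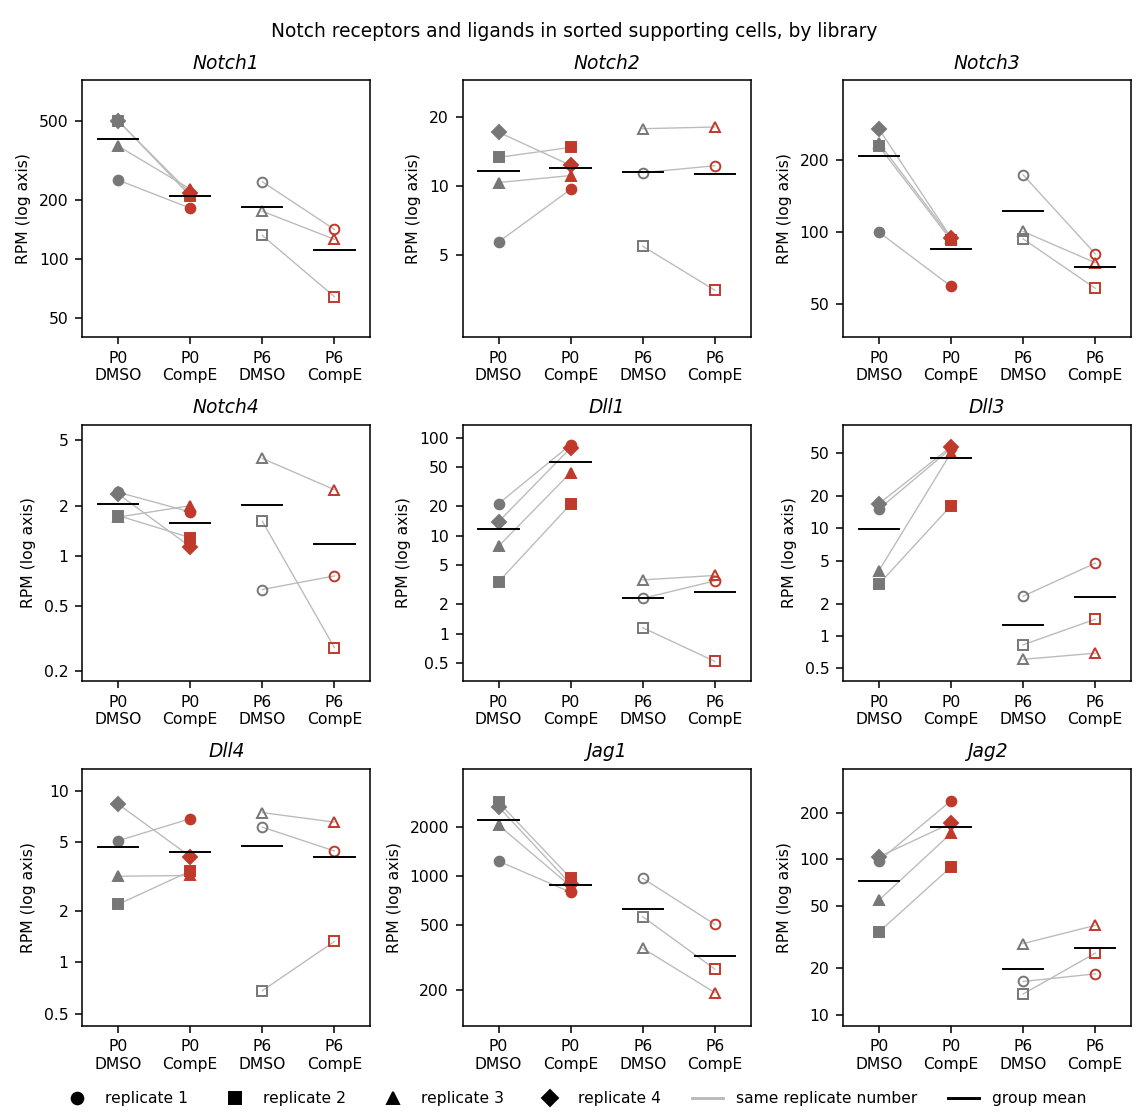
Level of each receptor and ligand (RPM, log axis) in every library, in grey for DMSO and red for CompE, filled at P0 and open at P6. Marker shape gives the replicate number, grey lines join libraries of the same number, and black bars are group means. At P0 the CompE libraries of Notch1, Notch3 and Jag1 sit below all DMSO libraries, and each joined line of Dll1, Dll3 and Jag2 goes up.

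Compound E at P0 was accompanied by lower Notch1, Notch3 and Jag1 and by higher Dll1, Dll3 and Jag2, each in 4 of 4 pairs of the same replicate number. Notch2, Notch4 and Dll4 showed no common direction. Thus 6 of the 9 genes differed in 1 direction in every pair, as did 29.1% of the 15937 genes tested. Compound E was compared with DMSO by edgeR's quasi-likelihood test over all genes, and calls needed both a 2-fold change and a p, adjusted by Benjamini-Hochberg, no larger than 0.01. Without the pairing 0 of the 9 genes were called, where 1.22% of all genes tested were called. An unadjusted p under 0.05 was seen for 6 of the 9 and for 2135 of the 15937 genes tested. DESeq2 called 4 of the 9 (Notch1, Notch3, Jag1 and Dll1), where it called 1.71% of all genes. Same-numbered libraries deviated together at both ages, and with the replicate number as a block 5 of the 9 were called, 3 higher (Dll1, Dll3 and Jag2) and 2 lower (Notch3 and Jag1), where 2.20% of all genes were called. In bulk samples, fewer cells of a type and less RNA per cell cannot be told apart.

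Among the receptors, Notch1, the main receptor of lateral inhibition in the cochlea, was measured at 251, 503, 374 and 501 RPM in DMSO replicates 1 to 4 and at 181, 209, 226 and 215 RPM in CompE. All CompE libraries were lower than all DMSO libraries, and the DMSO libraries varied more. The log2 fold change was -1.02 (SE 0.230, adjusted p = 0.0382), and with the block it was -0.96 (SE 0.145, adjusted p = 0.00606), which passed the p threshold and stopped short of 2-fold. Exons of Notch1 overlap those of a counted gene on the other strand, 0610009E02Rik, which averaged 0.621 RPM, and whether counting used strand is not given in the sources used here.

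Notch3, a receptor best known from vascular smooth muscle, was measured at 100.1, 229, 237 and 271 RPM in DMSO and at 59.3, 92.7, 94.7 and 94.9 RPM in CompE. The groups did not overlap, and replicate 1 was the lowest library of both. The log2 fold change was -1.34 (SE 0.311, adjusted p = 0.0430), and with the block Notch3 fell by 1.27 on the log2 scale (SE 0.131, adjusted p = 0.00100). Pdgfrb, a pericyte gene, fell as well, from a mean of 226 RPM in DMSO to 38.4 RPM in CompE, and made up nearly all of the summed level of the 8 pericyte and smooth muscle markers (28.2 to 58.5 RPM in CompE, 164 to 296 RPM in DMSO). The other 7 each averaged at most 2.05 RPM in CompE and 1.38 RPM in DMSO, with the smooth muscle gene Tagln at or near 0 in all 4 groups, and of the 5 that passed the filter Pdgfrb alone was called. Their part in the result was not tested.

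Notch2 was measured at 12.0 RPM ± 2.15 in CompE and 11.7 RPM ± 4.86 in DMSO (SD, n = 4 each), with overlapping libraries and a log2 fold change of -0.01 (SE 0.321). Notch4, a receptor known from endothelium, was measured at 1.57 RPM ± 0.424 and 2.06 RPM ± 0.382 and also overlapped, with a log2 fold change of -0.43 (SE 0.292, adjusted p = 0.633). Neither was distinguishable between treatments at this spread.

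Among the ligands, Jag1 was measured at 1233, 2839, 2055 and 2659 RPM in DMSO replicates 1 to 4 and at 793, 970, 863 and 891 RPM in CompE. The groups did not overlap, and the CompE libraries lay close together (879 RPM ± 73.2) whereas the DMSO libraries were spread (2197 RPM ± 725; SD, n = 4 each). The log2 fold change was -1.37 (SE 0.258, adjusted p = 0.0165), and with the block Jag1 fell by 1.29 on the log2 scale (SE 0.164, adjusted p = 0.00275). Groups that did not overlap, with CompE lower, were thus seen for 3 of the 9 genes (Notch1, Notch3 and Jag1) and for 4.76% of all genes tested.

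DESeq2 called these 3 genes with every library kept. In edgeR without the block and with the filter on low counts, their calls turned on DMSO replicate 1. That library had the lowest Notch1, Notch3 and Jag1 of its group. Without that library Notch1 (log2 fold change -1.21, adjusted p = 0.00247), Notch3 (-1.59, adjusted p = 0.00229) and Jag1 (-1.59, adjusted p = 0.000897) were called. The same library had the lowest sum of SC markers among the P0 DMSO libraries (8185 RPM, against 10557 to 12212 RPM) and the lowest Fringe and O-glycosylation sum (1416 RPM, against 3379 to 3912 RPM), and its TMM factor was 1.13, against 0.974 to 0.997. Lfng stands in both lists, so the sums are not separate measures. The part of the differences of this library was not tested.

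Dll1, an activating ligand of nascent HCs, was measured at 21.2, 3.38, 7.81 and 13.9 RPM in DMSO and at 85.0, 21.01, 44.0 and 78.7 RPM in CompE. The groups touched at their edges, since DMSO replicate 1 exceeded CompE replicate 2, but within pairs the ratio varied little, from 4.00 to 6.22. The log2 fold change was 2.29 (SE 0.536, adjusted p = 0.0453), and with the block Dll1 rose by 2.36 (SE 0.132, adjusted p = 7.82e-05). The SE of Dll1 was thus smaller with the block while the estimate moved by less than that SE.

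Dll3 was measured at 15.1, 3.03, 4.03 and 16.9 RPM in DMSO and at 54.9, 16.2, 50.0 and 57.0 RPM in CompE. Only CompE replicate 2 lay within the DMSO range, and the ratio within pairs was between 3.38 and 12.4. Unpaired, the log2 fold change was 2.17 (SE 0.564, adjusted p = 0.0720), and with the block Dll3 rose by 2.34 (SE 0.289, adjusted p = 0.00237).

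Jag2, the second activating ligand known from HCs, was measured at 97.9, 34.1, 54.7 and 104 RPM in DMSO and at 238, 89.4, 147 and 171 RPM in CompE. Again CompE replicate 2 lay within the DMSO range. Without the block the log2 fold change was 1.11 (SE 0.347, adjusted p = 0.144), and with the block Jag2 rose by 1.16 (SE 0.128, adjusted p = 0.00136). Replicate 2 was the lowest library of its group for Dll1, Dll3 and Jag2 in both treatments.

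The same libraries ordered the HC markers. The 12 markers, all counted, summed to 1245, 744, 1111 and 1758 RPM in DMSO replicates 1 to 4 and to 2502, 1497, 1794 and 2047 RPM in CompE, with replicate 2 lowest in both. Atoh1, the HC fate factor, had a mean of 53.2 RPM in DMSO and 194 RPM in CompE, and with the block it rose by 1.94 on the log2 scale (SE 0.126, adjusted p = 0.000122), as did Pou4f3 by 1.13. Myo7a and Otof, genes of differentiated HCs, had means of 86.4 and 82.0 RPM in DMSO and of 99.8 and 107 RPM in CompE, with overlapping libraries. Of the 12 markers, 0 were called without the block and 2 with it (Atoh1 and Pou4f3), where 1.22% and 2.20% of all genes were called. With the block 10 had a log2 fold change above 0, among them Rasd2 (0.81) and Myo6 (0.79). The 2 below 0 were Cdh23 (-0.06) and Espn (-0.10). The 12 SC markers, of which Lfng and Hes5 also stand in the pathway lists below, summed to between 7214 and 7490 RPM in CompE and between 8185 and 12212 RPM in DMSO. Without the block 1 of them was called (Fabp7), where 1.22% of all genes were called. With it 3 were called (Fabp7, Hes5 and Lfng), where 2.20% of all genes were, and each call was lower. In both fits 9 had a log2 fold change below 0 and 3 above 0 (Fgfr3, Slc1a3 and Rorb). The part of HC markers in the levels of Dll1, Dll3 and Jag2 was not tested.

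Dll4, the endothelial ligand, was measured at 4.40 RPM ± 1.69 in CompE and 4.70 RPM ± 2.72 in DMSO (SD, n = 4 each), with a log2 fold change of -0.13 (SE 0.404, adjusted p = 0.945). Endothelial markers were near the floor, with 8 genes summing to between 1.93 and 11.6 RPM over the P0 libraries.

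**Figure D2:**
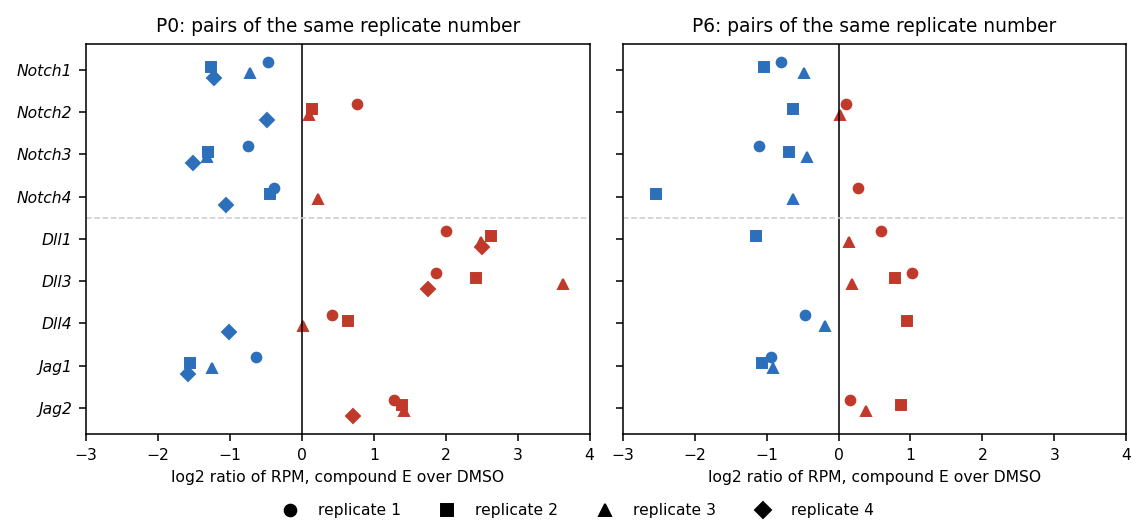
Log2 ratio of RPM, compound E over DMSO, for each pair of libraries of the same replicate number, at P0 (4 pairs) and P6 (3 pairs); red is above 0, blue below. At P0 the 4 ratios of Dll1 lie between 2.00 and 2.64, and at P6 the 3 ratios of Jag1 lie between -1.07 and -0.91.

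Per length, the group means of the 5 ligands and those of the 4 receptors each kept their order between treatments at P0, but the shares within the ligand sum differed. Jag1 was still first in P0 CompE at 609 TPM ± 41.5, but its share of summed ligand TPM was 74.2% ± 9.68, against 94.7% ± 4.05 in DMSO (SD, n = 4 each). The other 4 ligands together came to 217 TPM ± 91.6 in CompE and 70.6 TPM ± 37.7 in DMSO. Jag2 (93.9 TPM), Dll3 (63.4 TPM), Notch1 (58.9 TPM), Dll1 (55.1 TPM) and Notch3 (42.6 TPM) then formed a run in which each overlapped the next. Summed receptors were at 107 TPM ± 13.7 in CompE and 224 TPM ± 74.2 in DMSO, and the shares of Notch1 and Notch3 within that sum were 55.5% ± 3.17 and 39.6% ± 3.34 in CompE.

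**Figure D3:**
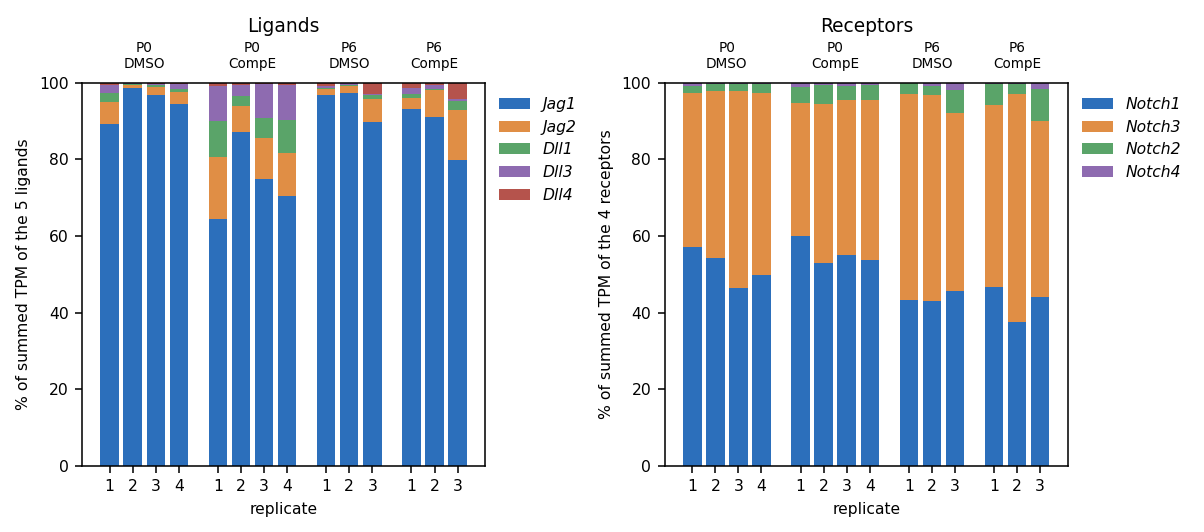
Share of each ligand in the summed TPM of the 5 ligands (left) and of each receptor in that of the 4 receptors (right), as stacked bars for each library; numbers under the bars are replicates. Jag1 takes between 64.4% and 87.2% of the ligand bars in P0 CompE and between 89.2% and 98.5% in P0 DMSO.

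At P6 the same question was asked of 3 libraries per treatment, and 0 of the 9 genes were called by edgeR, with or without the block, where 0% of the 15322 genes tested were called. Of the 9 genes, 1 (Notch3) had an unadjusted p under 0.05, as did 289 of the 15322 genes tested. DESeq2 called 13 genes and 0 of the 9. Each of the 9 had an adjusted p of 1.00 without the block.

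Notch1, Notch3 and Jag1 were again lower in each pair, in 3 of 3. Jag1 was measured at 967, 562 and 359 RPM in DMSO replicates 1 to 3 and at 504, 267 and 192 RPM in CompE. Groups overlapped, but the ratio within pairs was nearly constant, between 0.476 and 0.534. The log2 fold change of Jag1 was -0.96 (SE 0.462), and with the block its SE was 0.0822 and its adjusted p 0.113. Notch1 was measured at 246, 132 and 175 RPM in DMSO and at 141, 64.4 and 126 RPM in CompE (log2 fold change -0.73, SE 0.319; adjusted p = 0.365 with the block). Notch3 was measured at 174, 93.8 and 101 RPM in DMSO and at 81.3, 58.2 and 74.6 RPM in CompE (log2 fold change -0.78, SE 0.259; adjusted p = 0.422 with the block). Notch3 was the only 1 of the 9 whose groups did not overlap at P6, and 4.14% of all genes tested were lower in this way.

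The P6 ligands other than Jag1 were low. Jag2 was measured at 16.4, 13.6 and 28.7 RPM in DMSO and at 18.3, 24.9 and 37.6 RPM in CompE, higher in 3 of 3 pairs (log2 fold change 0.48, SE 0.347). Dll3 was also higher in 3 of 3 pairs, at 0.607 to 2.34 RPM in DMSO and 0.692 to 4.73 RPM in CompE (log2 fold change 0.87, SE 0.913). Dll1 was measured at 2.29, 1.15 and 3.54 RPM in DMSO and at 3.46, 0.523 and 3.93 RPM in CompE, which rest on 15 to 146 counts, and was higher in 2 of 3 pairs (log2 fold change 0.18, SE 0.797). In all, 5 of the 9 genes differed in 1 direction in every P6 pair, as did 32.9% of all genes tested.

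Notch2, Notch4 and Dll4 followed the replicate number at P6 more than the treatment. So did Dll1, which was lowest in replicate 2 and highest in replicate 3 of both treatments. Notch2 had its lowest level in replicate 2 (5.47 RPM in DMSO, 3.52 RPM in CompE) and its highest in replicate 3 (17.8 and 18.1 RPM). Notch4 was also highest in replicate 3 (3.88 and 2.51 RPM), as was Dll4 (7.45 and 6.56 RPM). In the same libraries the 8 endothelial markers summed to 45.0 and 49.6 RPM, against 1.07 to 13.2 RPM in the other P6 libraries. Other lists stood apart there too: in DMSO and CompE replicate 3, macrophage markers summed to 32.5 and 94.3 RPM (2.84 to 17.5 RPM in the others) and mesenchyme markers to 960 and 722 RPM (190 to 375 RPM), while SC markers were lowest, at 7347 and 5927 RPM (8610 to 11946 RPM). Dll4 was at 6.13 and 4.46 RPM in DMSO and CompE replicate 1, where endothelial markers summed to 6.42 and 1.07 RPM. In CompE replicate 2 it was at 1.32 RPM, with an endothelial sum of 13.2 RPM. The part of any of these lists in the levels was not tested. Fitted without the DMSO library of replicate 3, Notch4 had a log2 fold change of 0.01, and without the CompE library it had -1.94, against -0.79 with both.

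**Figure D4:**
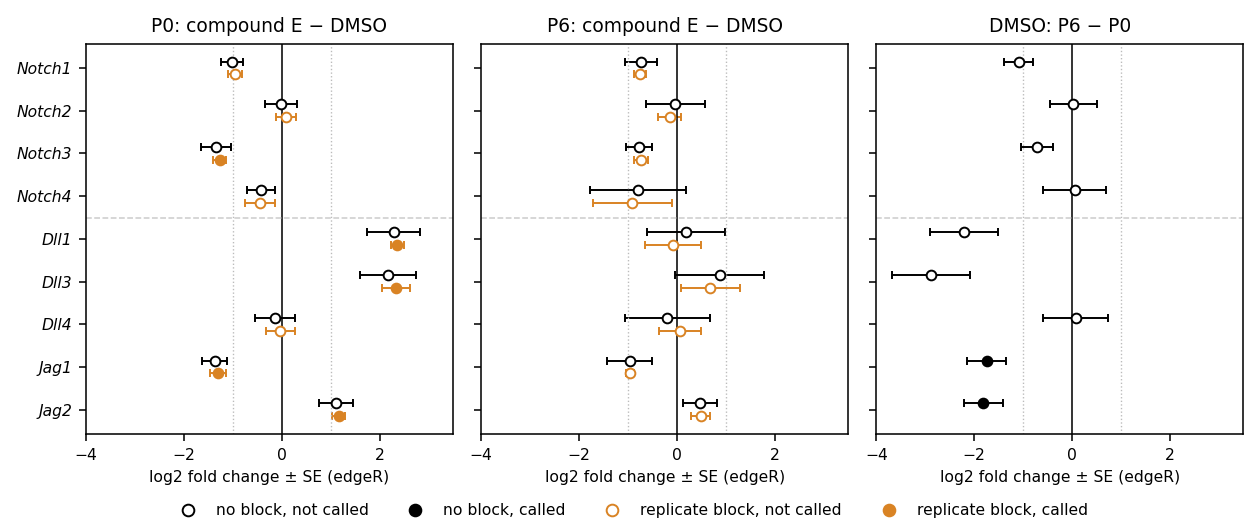
Log2 fold change ± SE of each gene from edgeR, for CompE against DMSO at P0 and P6, without (black) and with (orange) the replicate block, and for P6 against P0 in DMSO, without it only; filled points were called and dotted lines mark a 2-fold change. At P0 the orange points of Dll1, Dll3 and Jag2 are filled on the right and those of Notch3 and Jag1 on the left, and no P6 point is filled.

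Whether the response differed with age was tested by the interaction of age and treatment over all 14 libraries. With edgeR 0 of the 9 genes were called, where 0% of the 17090 genes tested were called. An unadjusted p under 0.05 was seen for 1 of the 9 (Dll1) and for 811 of all genes tested. DESeq2 called 0 of the 9. The response of Dll1 at P6 minus that at P0 was -2.11 (log2, SE 0.928, adjusted p = 1.00), and with the block -2.32 (SE 0.342, adjusted p = 0.0268), which did not reach the threshold. With the block, Dll3 differed by -1.60 (SE 0.480, adjusted p = 0.266) and Jag2 by -0.67 (SE 0.220, adjusted p = 0.329). The differences of Notch1 (0.30, SE 0.407), Notch3 (0.58, SE 0.452) and Jag1 (0.42, SE 0.534) had adjusted p of 1.00 without the block, and at this spread equal and unequal responses of these 3 genes cannot be told apart.

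Between P0 and P6, without inhibitor, 2 of the 9 genes were called, both lower at P6 (Jag1 and Jag2), where 3.38% of the 17090 genes tested were called lower. Libraries of the 2 ages were made in different batches, so age and batch cannot be told apart, and this comparison shares its P0 DMSO libraries with the P0 treatment comparison. Jag1 had a mean of 2197 RPM ± 725 at P0 (n = 4) and 629 RPM ± 310 at P6 (n = 3), and fell by 1.74 on the log2 scale (SE 0.398, adjusted p = 0.00705). Jag2 had a mean of 72.6 RPM ± 33.8 at P0 and 19.6 RPM ± 8.03 at P6, and fell by 1.81 (SE 0.402, adjusted p = 0.00599). Both calls lay near the threshold. Among the 14 fits that each left out 1 library, Jag1 was called in 5 and Jag2 in 10. Some of these fits left out a CompE library, which enters the shared spread but not the contrast. Without P0 CompE replicate 2, 3 or 4, 1 of the 9 genes was called in each fit. Neither Jag1 nor Jag2 was called without P0 DMSO replicate 4 or without P6 DMSO replicate 2. Both were lower in each of the 14 fits, with adjusted p of at most 0.0317 for Jag1 and 0.0319 for Jag2.

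Dll3 was at 9.75 RPM ± 7.22 in P0 DMSO and 1.26 RPM ± 0.941 in P6 DMSO, with a log2 fold change of -2.89 (SE 0.795, adjusted p = 0.0188). Dll1 was at 11.6 RPM ± 7.74 and 2.33 RPM ± 1.20, with a log2 fold change of -2.21 (SE 0.691, adjusted p = 0.0342). Notch1 was at 407 RPM ± 120 and 184 RPM ± 58.0, with a log2 fold change of -1.09 (SE 0.296, adjusted p = 0.0175). DESeq2 called these 3 as well as Jag1 and Jag2, so 5 of the 9 were called lower, as were 1104 of the 26792 genes it tested. Libraries of the 2 ages did not overlap for 4 of the 9 genes (Notch1, Dll3, Jag1 and Jag2), each lower at P6, as were 18.7% of all genes tested.

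Notch3 differed by -0.72 (SE 0.324, adjusted p = 0.129), and Notch2, Notch4 and Dll4 by 0.03, 0.06 and 0.07, with SEs of 0.486, 0.648 and 0.665. Per length, Jag1 was first at P6 as well (403 TPM ± 196 in DMSO, n = 3), at 94.6% ± 4.30 of summed ligand TPM, close to its share at P0. The receptors Notch3 (56.9 TPM) and Notch1 (48.5 TPM) overlapped. Summed receptors came to 110.4 TPM ± 35.7 and ligands to 422 TPM ± 194 in P6 DMSO, against 224 TPM ± 74.2 and 1581 TPM ± 513 in P0 DMSO.

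The other genes of the pathway were counted by list. All 6 Notch target genes had a log2 fold change below 0 with compound E at P0. Without the block 5 were called (Heyl -3.36, Nrarp -3.11, Hes1 -2.70, Hey1 -1.65 and Hey2 -1.17), where 1.22% of all genes tested were called. Hes5, at a mean of 690 RPM in DMSO and 21.1 RPM in CompE, had an adjusted p of 0.0187 without the block and was called with it (0.00247). The list's median was -2.91 against 0.01 over all genes tested. At P6 0 of the 6 were called by edgeR, with a median of -1.73. In DMSO, all 6 had a log2 fold change below 0 at P6 against P0, and 4 (Hes1, Hes5, Hey1 and Nrarp) were called. Of all genes tested, 3.38% were called lower at P6.

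Of the 9 genes that cut the receptor, Psen2, one of the alternative catalytic subunits of γ-secretase, fell by 1.18 at P0 (SE 0.166, adjusted p = 0.00387) and the other 8 were not called. Its levels were 14.5 RPM ± 2.07 in CompE and 31.9 RPM ± 5.64 in DMSO (SD, n = 4 each). At P0, 1.22% of all genes tested were called without the block. In DMSO, Psenen and Aph1a, which encode the γ-secretase subunits PEN-2 and APH-1A, rose between P0 and P6 by 2.15 (SE 0.196) and 1.50 (SE 0.197). Both genes were called, where 639 of the 17090 genes tested were called higher at P6.

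Of the 6 genes for Fringe enzymes and Notch O-glycosylation, 0 were called at P0 without the block and 1 with it, Lfng, which fell by 1.54 (SE 0.227, adjusted p = 0.00537). The shares of all genes tested that were called were 1.22% and 2.20%. Lfng, which modifies Notch receptors and whose regulatory sequence drives the EGFP used for the sort, was at 912 RPM ± 162 in CompE and 2791 RPM ± 1123 in DMSO. The part of the sort in the levels of the 9 genes was not tested. Mfng had a log2 fold change of 0.90 at P0 and fell by 1.66 between P0 and P6 in DMSO (SE 0.335, adjusted p = 0.00339).

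Of the 8 non-canonical ligands, 7 passed the filter on low counts and 0 were called without the block; with it, Dlk2, a Delta-like membrane protein, rose by 1.68 (SE 0.161, adjusted p = 0.000702) and Cntn1, a neural adhesion protein, fell by 1.11. None of the 12 genes for endocytosis and turnover was called at P0 with or without the block, and Neurl1a, a Neuralized ubiquitin ligase of ligands, had a log2 fold change of 0.93 (SE 0.171, adjusted p = 0.0147). None of the 9 genes of the nuclear complex was called either, and Rbpj had a log2 fold change of 0.01 (SE 0.228). Over all genes tested at P0, 1.22% were called without the block and 2.20% with it. At P6, edgeR called 0 genes of the pathway lists and 0 of the 15322 genes tested.

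**Figure D5:**
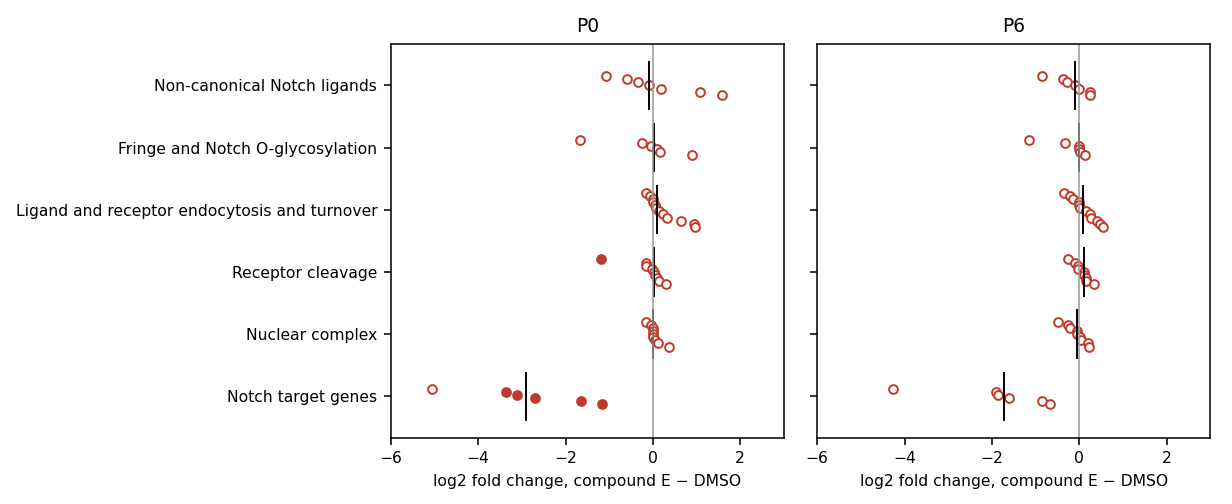
Log2 fold change of each pathway gene with compound E at P0 and P6 (edgeR, no block), 1 point per gene, filled where called, with a bar at the list's median. The target genes lie below 0 at both ages, with medians of -2.91 at P0 and -1.73 at P6, and the other lists have medians near 0.

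The genes most alike in pattern were found by Pearson correlation of log2(RPM + 1) over the 14 libraries, among the 9988 genes that averaged 10 RPM or more. The libraries share treatments, ages and replicate numbers, so the values describe these libraries only. Dll1 was most like Insm1, a zinc finger factor (r = 0.986), and Dlk2 (r = 0.984), and Jag2 like Dlk2 (r = 0.977) and the long non-coding RNA Miat (r = 0.976). Dll3 was most like Atoh1 (r = 0.980) and Psph, an enzyme of serine synthesis (r = 0.967). Jag1 was most like D430041D05Rik (r = 0.980) and Sox21, a SoxB factor (r = 0.977). Notch1 was most like the microfibril gene Fbn2 (r = 0.972) and the proprotein convertase gene Pcsk6 (r = 0.970), Notch3 like Kazn (r = 0.931) and Mast4 (r = 0.917), and Notch2 like Tnrc6b (r = 0.914) and Rfx3 (r = 0.899).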

How the data were processed

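For the 14 libraries, the authors trimmed reads (Trim Galore 0.6.0, Cutadapt 1.15), aligned them to GRCm38 with STAR and deposited raw counts for each gene and library. STAR is given as version 2.7.0f in the submitters' processing notes, and the annotation release and use of strand are not given in the sources used here. Libraries were amplified full-length cDNA without molecular identifiers. Labels do not say that replicates came from separate animals, so p-values measure the spread between these libraries, which may be technical. No 2 replicates agreed within sampling noise (chi-square at least 20.5 times its degrees of freedom).

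RPM was computed from the deposited counts as count over library total, and TPM with GENCODE M21 exon-union lengths, for which 74.4% of symbols and at least 97.3% of counts matched. Counts were tested in edgeR 4.0.16 (R 4.3.3; TMM, filterByExpr with a minimum count of 10, glmQLFit, glmQLFTest), each age alone, or over 14 libraries for the interaction and the age comparison. A call needed an adjusted p of at most 0.01 and a 2-fold change. SEs were taken as the log2 fold change over the square root of F. DESeq2 1.42.0, other normalization and filters, batch or replicate as a block, and fits leaving out libraries were alternatives. The test was checked on simulated data with changes planted in 200 genes. Without the block 77.5% of these were recovered at P0 and 53% at P6, and with it 75% and 46.5%. The simulated libraries held no replicate effect, so what the block does with 1 was not checked. Replicate numbers were taken as pairs because deviations of same-numbered libraries correlated in each pair, at 0.262 to 0.580 at P0 and 0.501 to 0.793 at P6. The labels do not state this pairing. At P0 it was not clear for every library, since CompE replicate 2 correlated at 0.281 with DMSO replicate 3 and at 0.262 with DMSO replicate 2. P0 replicates 3 and 4 shared a batch. All 9 genes were named whatever their values, with the 2 genes most alike to each member averaging at least 10 RPM and up to 4 genes of each pathway list by lowest p at P0. Marker genes and genes called with the block or between ages were named after their values were seen. Members and lists were chosen with earlier results of these data known.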

Additional observations from a re-analysis of the deposited data

Results flagged for a closer look

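Of 18 groups of 4 libraries examined (9 genes by 2 treatments at P0), 1 had a library far from the others. Notch3 in P0 CompE replicate 1 was at 59.3 RPM, below the other 3 CompE libraries, with a gap of 0.938 of the group's whole range. Chance alone flags about 1 in 20 such groups. Notch3 in DMSO replicate 1, the library of the same number, was also the lowest of its group. The P6 groups, with 3 libraries each, were not examined in this way.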

How the results depend on the processing

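With compound E at P0, the number of the 9 genes called was 0 without a block, 5 with the replicate block and 5 with batch as a block, 4 in DESeq2, 4 at a looser threshold (adjusted p up to 0.05, any fold), 1 (Jag1) without the filter on low counts, and between 0 and 3 when 1 library or both libraries of a replicate number were left out. Of all genes, 195 were called, against 350 with the replicate block, 334 with batch as a block, 441 with DESeq2, 617 at the looser threshold and 117 when both ages were fitted jointly. Leaving out libraries gave between 1 and 225 genes, the 1 being the fit without both libraries of replicate 4. Notch1, Notch3, Jag1, Dll1, Dll3 and Jag2 kept their direction in all 19 alternatives at P0. Notch2, at -0.01, was 0.085 with the replicate block and 0.065 with batch as a block, and between -0.25 and 0.23 with libraries left out; Dll4 lay between -0.40 and 0.33.

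At P6, 0 of the 9 genes were called in each alternative, and DESeq2 called 13 genes. Dll1 was -0.085 and Dll4 0.073 with the replicate block, and the same with batch as a block, since each pair was its own batch. With libraries left out, Notch2 ranged from -0.52 to 0.39, Notch4 from -1.94 to 0.011, Dll1 from -0.20 to 0.66, Dll3 from -0.20 to 1.67 and Dll4 from -0.71 to 0.26. Notch1, Notch3, Jag1 and Jag2 kept their direction in all 16 alternatives.

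For the interaction, 0 of the 9 genes were called in each alternative. Of all genes, 2 were called at the looser threshold, 34 with DESeq2, 1 without the filter, 16 with the replicate block, 15 with batch as a block and between 0 and 2 with libraries left out. Dll4 differed by 0.088 with the replicate block and 0.16 with batch as a block, and with libraries left out Notch2 ranged from -0.50 to 0.40, Notch4 from -1.51 to 0.43, Dll4 from -0.56 to 0.40 and Jag1 from -0.042 to 0.86.

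Between P0 and P6 in DMSO, 2 of the 9 genes were called, against 5 with DESeq2, 5 at the looser threshold and between 0 and 2 with libraries left out. Of all genes, 1216 were called, against 1994 with DESeq2, 3840 at the looser threshold and between 804 and 1260 with libraries left out. Notch2 ranged from -0.38 to 0.35, Notch4 from -0.73 to 0.48 and Dll4 from -0.38 to 0.58. The cause of these changes was not tested. With the longest transcript as the length in place of the exon union, Notch1 stood above Notch3 at P6 (55.6 and 43.8 TPM in DMSO, 33.7 and 25.7 TPM in CompE). Where an arm kept 2 or 3 libraries, spread was pooled over the fit. At P6 the SEs of Dll1, Dll3 and Notch4 were 0.797, 0.913 and 0.982, so their treatment differences were poorly determined there.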
